A study of Mus musculus with 4 samples.

Results

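Msx1, Msx2, Pax9, Barx1, Dlx1, Dlx2, Dlx3, Lhx6 and Lhx8 are transcription factor genes that pattern the tooth-forming jaw, and their transcripts were followed in cultured mouse molar germs exposed to a dioxin. They were taken as every probe set on the array with 1 gene symbol among these 9 names, which gave 10 probe sets of 12488. Barx1 had 2 probe sets and each other gene had 1. The tissue was the mandibular molar region of NMRI embryos dissected at embryonic day 14 and cultured for 24 h with fetal calf serum. The control group received the solvent dimethyl sulfoxide (DMSO) at 0.65%, and the exposed group received 1 µM TCDD (2,3,7,8-tetrachlorodibenzo-p-dioxin), which was dissolved in the same solvent. Each group had 2 samples, each a pool of about 60 explants from 3 experiments hybridised to 1 oligonucleotide array. The pools hold epithelium, mesenchyme and the tissue around the tooth together. The labels for DMSO replicate 2 alone add ascorbic acid to the medium, and the total RNA labelled was 11 µg for replicate 1 of both groups, 7 µg for DMSO replicate 2 and 8 µg for TCDD replicate 2.

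The tooth is built by exchange of signals between oral epithelium and the neural crest-derived mesenchyme beneath it. Bone morphogenetic protein (BMP) and fibroblast growth factor (FGF) signals from the epithelium switch on homeobox genes in the mesenchyme, whose proteins bind DNA through the homeodomain, and the combination present along the jaw distinguishes incisor from molar regions. Msx1 and Pax9 are needed for the mesenchyme to pass the bud stage. Barx1, Dlx1 and Dlx2 mark the proximal, molar-forming mesenchyme, and the LIM-homeobox genes Lhx6 and Lhx8 mark its oral side. TCDD acts by binding the aryl hydrocarbon receptor, which with its partner binds DNA at the core GCGTG.

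The DNA upstream of the genes is shown for the receptor core, because the exposure works through a receptor that recognises it. RefSeq promoter sequences of build GRCm38.p6 were found for 8 of the 9 genes, as 10 promoters (Lhx6 has 3), and the 250 bases before each start were read. Both strands were searched for GCGTG, which reads CACGC on the other strand, and for the homeodomain core TAATTA, which reads the same on both strands and shares no overlap with GCGTG. The core GCGTG was present in 4 of the 10 promoters, from 3 genes, and in 28.2% of all 32851 promoters of this length. Dlx2 held it at 171 and 135 bases before the start, Msx1 at 42, and 2 Lhx6 promoters at 203 and 187. The core TAATTA was found before Msx2 alone among these genes, 187 bases before the start, and in 4.8% of all promoters. The promoters of the pair Msx1 (chr5:37824586-37824835, minus strand) and Msx2 (chr13:53472781-53473030, minus strand) follow, with those of Dlx2 (chr2:71546755-71547004, minus strand) and Barx1 (chr13:48662786-48663035, plus strand), the genes with a probe set whose signals separated the groups. Capitals mark the cores.
Msx1: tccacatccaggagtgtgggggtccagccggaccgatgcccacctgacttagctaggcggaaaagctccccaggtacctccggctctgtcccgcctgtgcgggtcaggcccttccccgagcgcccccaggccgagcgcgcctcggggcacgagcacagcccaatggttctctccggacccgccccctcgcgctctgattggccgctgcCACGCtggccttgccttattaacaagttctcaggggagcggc
Msx2: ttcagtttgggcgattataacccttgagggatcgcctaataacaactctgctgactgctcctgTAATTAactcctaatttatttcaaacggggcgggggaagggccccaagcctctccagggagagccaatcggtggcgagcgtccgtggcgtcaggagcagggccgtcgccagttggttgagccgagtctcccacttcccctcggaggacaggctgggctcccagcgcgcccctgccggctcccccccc
Dlx2: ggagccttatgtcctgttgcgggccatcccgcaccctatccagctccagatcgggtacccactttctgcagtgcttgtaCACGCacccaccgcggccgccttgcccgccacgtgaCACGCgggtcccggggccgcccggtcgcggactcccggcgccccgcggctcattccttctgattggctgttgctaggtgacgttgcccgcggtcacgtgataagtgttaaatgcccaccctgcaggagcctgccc
Barx1: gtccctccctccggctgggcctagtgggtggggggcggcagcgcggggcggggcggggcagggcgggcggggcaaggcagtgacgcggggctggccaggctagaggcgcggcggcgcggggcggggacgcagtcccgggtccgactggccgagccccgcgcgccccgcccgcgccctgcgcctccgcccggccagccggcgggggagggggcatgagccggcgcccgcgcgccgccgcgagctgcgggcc
The Barx1 window held neither core but 40 CpG dinucleotides, against a median of 16.5 over the 10 promoters of these genes and 6 over all promoters. A match of letters is a description and not a binding site.

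Signals were the deposited intensities of the MAS5 algorithm, in units scaled so that an array averages about 100, and a level is compared only within a probe set. The comparison of TCDD with DMSO asks whether the exposure shifted these transcripts. It was fitted on log2(signal + 16) with limma over 5783 probe sets whose signal averaged 50 or more, and an adjusted p of 0.05 was the threshold. The exposure was visible in the receptor's classical target Cyp1a1, a xenobiotic-metabolising enzyme, whose DMSO signals of 14.7 and 12.7 compared with 194.8 and 210.5 under TCDD (log2 difference 2.88, limma adjusted p 0.000368). Of 4 tested receptor targets 2 passed, Cyp1a1 and Cyp1b1 (2.28, limma adjusted p 0.000918). Tiparp (1.53) and Nqo1 (0.99) did not, with limma adjusted p of 0.167 and 0.997. Cyp1a1 and Nqo1 reached the signal minimum through their TCDD signals. Other, dim probe sets differed by 0.10 for Cyp1a1, -0.10 for Cyp1b1 and 0.22 for Nqo1.

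Of the 10 patterning probe sets 9 reached the signal minimum, and Pax9 with a mean of 48.4 did not. With TCDD, 0 of the 9 passed the limma test, and 0 had an unadjusted p under 0.05. Over all tested probe sets 0.0692% passed, and 2.59% had an unadjusted p under 0.05. Of the 9, 5 had a higher mean log2 value in TCDD and 4 a lower one, where 51.1% of all tested were higher. Their median log2 difference was 0.03, beside 0.01 over all tested. With 1 array left out that median lay between -0.14 and 0.34. Without DMSO replicate 1, 2 of 10 were higher, and without TCDD replicate 1, 8 of 10. Without DMSO replicate 2, 7 of 9 were higher, and without TCDD replicate 2, 4 of 9. On all 4 arrays the limma adjusted p was 0.997 or 0.998 for each of the 9. Both TCDD arrays lay outside the DMSO range at 2 of the 10, 1 above and 1 below, where 29.8% of all tested probe sets separated in this way, 15.3% upward and 14.6% downward. In such pools of tissue, fewer cells of a type and less RNA per cell cannot be told apart.

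**Figure D1:**
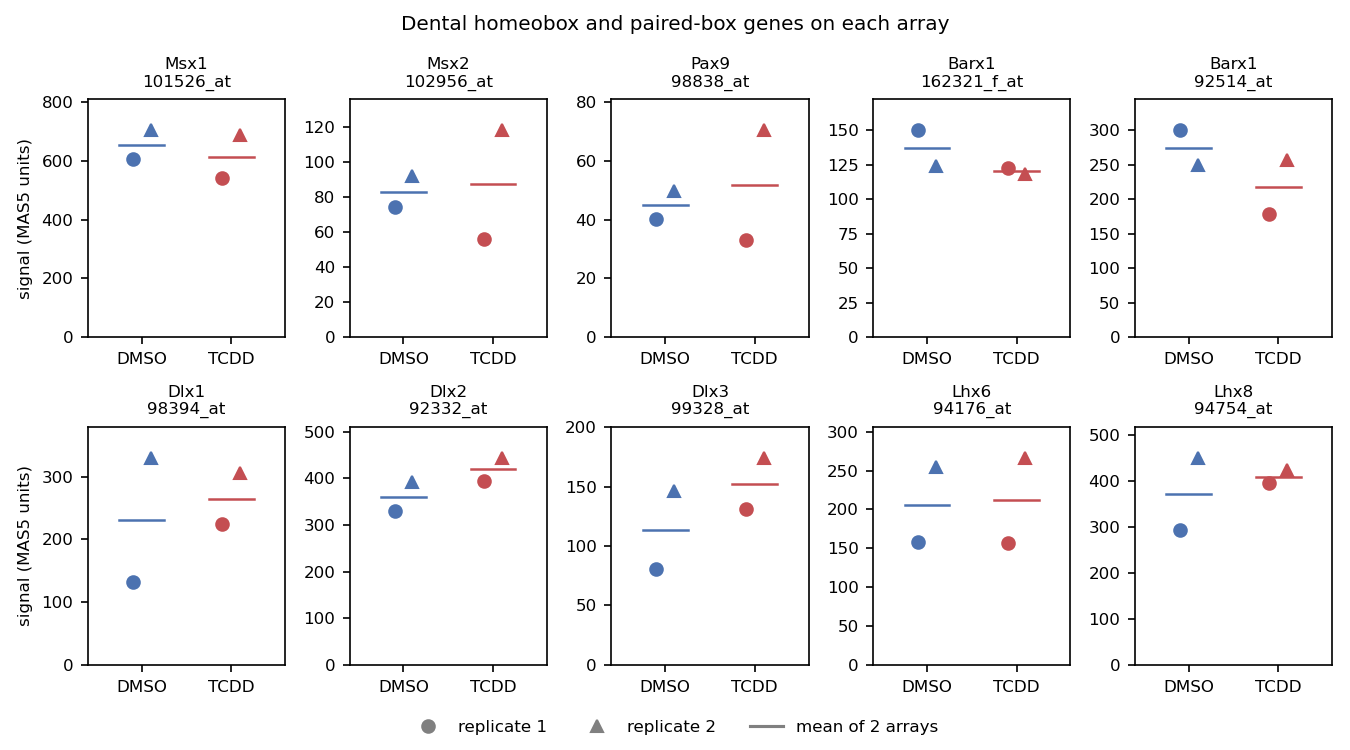
Signals in MAS5 units (linear axes from 0) of the 10 probe sets on each of the 4 arrays, with circles for replicate 1, triangles for replicate 2 and lines for the means of 2 arrays. Triangles sit above circles in both groups in 8 of the 10 panels, while the groups overlap in 8.

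Msx1, the mesenchymal homeobox gene that keeps Bmp4 on in the tooth bud, was measured at 605.2 and 705 in DMSO and at 540.6 and 687.1 in TCDD. The groups overlapped, with replicate 1 the lower array in each. The difference was -0.10 ± 0.19 (SE) on the log2 scale, with a 95% interval from -0.52 to 0.33. On the scale of signal + 16 this interval reaches from 1.44-fold lower to 1.26-fold higher. It was the one interval of the 9 that lay within a 1.5-fold change either way. The sign turned to 0.01 without DMSO replicate 2 and 0.07 without TCDD replicate 1.

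Msx2, its relative expressed in dental mesenchyme and epithelium, measured 74 and 92.1 in DMSO. In TCDD it had the lowest and the highest of its 4 values, 56.2 and 118.2. The log2 difference of -0.003 ± 0.29 (SE) therefore lies between arrays that differed 2.1-fold within the exposed group, and its 95% interval ran from -0.65 to 0.64. It was 0.44 without TCDD replicate 1 and -0.45 without TCDD replicate 2.

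Pax9, the paired-box gene of the dental mesenchyme, showed the same order of arrays as Msx2. The controls read 40.2 and 49.9 and the TCDD arrays 33.1 and 70.5, so that the exposed arrays again lay on either side of the controls. The ratio of replicate 2 to replicate 1 was 1.24 in DMSO and 2.13 in TCDD. The log2 difference between groups was 0.10, with no test at this signal, and ranged from -0.31 to 0.51 with 1 array left out. The other paired-box genes were mostly dim: of 7 on the array 6 had a mean under 50. Pax4, a gene known from the endocrine pancreas, passed the minimum through its DMSO signals of 78.6 and 52.1, against 41.7 and 31 in TCDD (log2 difference -0.62 ± 0.26 SE, limma adjusted p 0.997).

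Barx1, the homeobox gene of the molar mesenchyme, was the only one of these genes with 2 probe sets, and both had lower TCDD means. At 92514_at the signals were 300.6 and 249.5 in DMSO and 179.1 and 256.8 in TCDD. The groups overlapped there, since TCDD replicate 2 lay between the controls. The log2 difference was -0.33 ± 0.22 (SE), with a 95% interval from -0.82 to 0.16. At 162321_f_at, whose name marks probes shared by a family of similar sequences, signals were 150.1 and 124 in DMSO and 122.7 and 117.9 in TCDD. Both TCDD values were below both controls, by as little as 1.3 units between TCDD replicate 1 and DMSO replicate 2. The difference there was -0.16 ± 0.21 (SE), from -0.62 to 0.30. Leaving out 1 array moved the values over -0.57 to -0.09 and over -0.29 to -0.04.

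Dlx2, a distal-less homeobox gene of the proximal arch, was the one probe set with both TCDD signals above both DMSO signals. They were 330 and 391.6 in DMSO and 394.3 and 444.3 in TCDD. DMSO replicate 2 and TCDD replicate 1 lay close together, with a gap of 2.7 units, far less than the spread in either group. The log2 difference was 0.21 ± 0.19 (SE), with a 95% interval from -0.22 to 0.64, and lay between 0.09 and 0.33 with 1 array left out.

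Dlx1, its neighbour on chromosome 2 with no protein-coding gene annotated between them, varied most between replicates. Its signals were 132.6 and 330.2 in DMSO and 223.8 and 306 in TCDD. DMSO replicate 1 was the low array, 2.49-fold under replicate 2, and both exposed arrays fell between the controls. The log2 difference of 0.29 ± 0.34 (SE) had a 95% interval from -0.45 to 1.04. It was 0.90 without DMSO replicate 2 and -0.32 without DMSO replicate 1. The within-array log2 difference of Dlx1 to Dlx2 also overlapped between groups.

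Dlx3, a distal-less gene active in tooth and hair, had the largest mean difference of the 10 probe sets on the log2(signal + 16) scale. Its signals were 80.6 and 145.9 in DMSO and 130.8 and 174.3 in TCDD. TCDD replicate 1 lay under DMSO replicate 2, so the groups overlapped. The log2 difference was 0.42 ± 0.27 (SE), from -0.17 to 1.01, with a limma adjusted p of 0.997. It was 0.05 without DMSO replicate 1, the low array, and 0.79 without DMSO replicate 2. Of the other Dlx genes, named here for their family after their values were seen, Dlx5 had 169.3 and 279.6 in DMSO and 246.7 and 234.4 in TCDD. Dlx4 and Dlx6 had means of 48.2 and 35.1, below the minimum.

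Lhx6, a LIM-homeobox gene induced by FGF8 on the oral side of the arch, was near level between groups and split by replicate. Its signals were 157.6 and 255.2 in DMSO and 156.6 and 266.6 in TCDD. The lower pair and the upper pair each held 1 array of each group. The log2 difference was 0.03 ± 0.28 (SE), from -0.60 to 0.65, and turned to -0.30 without DMSO replicate 1 and -0.33 without TCDD replicate 2.

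Lhx8, its partner in the same domain, was at 292.7 and 450.6 in the controls and at 395.8 and 423.4 under TCDD. The exposed arrays lay between the controls, with DMSO replicate 1 low. The log2 difference was 0.16 ± 0.22 (SE), from -0.33 to 0.66, and -0.13 without DMSO replicate 1.

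**Figure D2:**
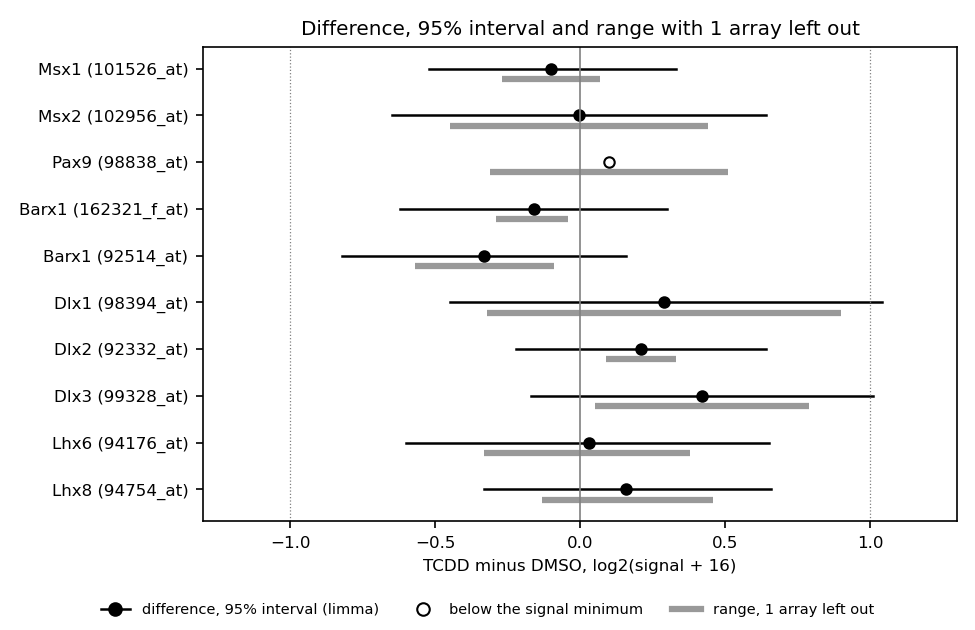
TCDD minus DMSO differences of log2(signal + 16) for each probe set, with 95% intervals from limma (black) and the range of values with 1 array left out (grey), and dotted lines at 1 and -1, a 2-fold change. Every interval crosses 0, and 7 of 9 lie within the dotted lines, with Dlx1 and Dlx3 reaching 1.04 and 1.01; Pax9 (open circle) was below the signal minimum.

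The intervals give what these arrays allow. For 7 of the 9 tested probe sets the 95% interval lay within a 2-fold change in either direction. For Dlx1 and Dlx3 the upper bounds were 2.05-fold and 2.02-fold higher on signal + 16. With 2 arrays per group, changes within these intervals cannot be set aside. An adjusted p above the threshold does not show that the levels were alike. Nor are the intervals a limit of detection. The receptor target Tiparp differed by 1.53 ± 0.27 (SE) and did not pass, with a limma adjusted p of 0.167.

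Replicate number went with larger differences than the exposure at 7 of the 10 probe sets, against 56.4% of all tested. Replicate 1 was below replicate 2 in both groups at 8 of the 10, all but the 2 Barx1 probe sets, beside 30.8% of all tested. The median log2 difference of replicate 1 minus replicate 2 was -0.34 over the 9 tested, and -0.01 over all tested. It was -0.82 for Dlx1, -0.68 for Lhx6, -0.58 for Msx2 and -0.56 for Dlx3. Within that, the low array was not the same for each gene. DMSO replicate 1 was lowest for Dlx1, Dlx2, Dlx3 and Lhx8, and TCDD replicate 1 for Msx1, Msx2, Pax9, Lhx6 and the Barx1 probe set 92514_at.

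**Figure D3:**
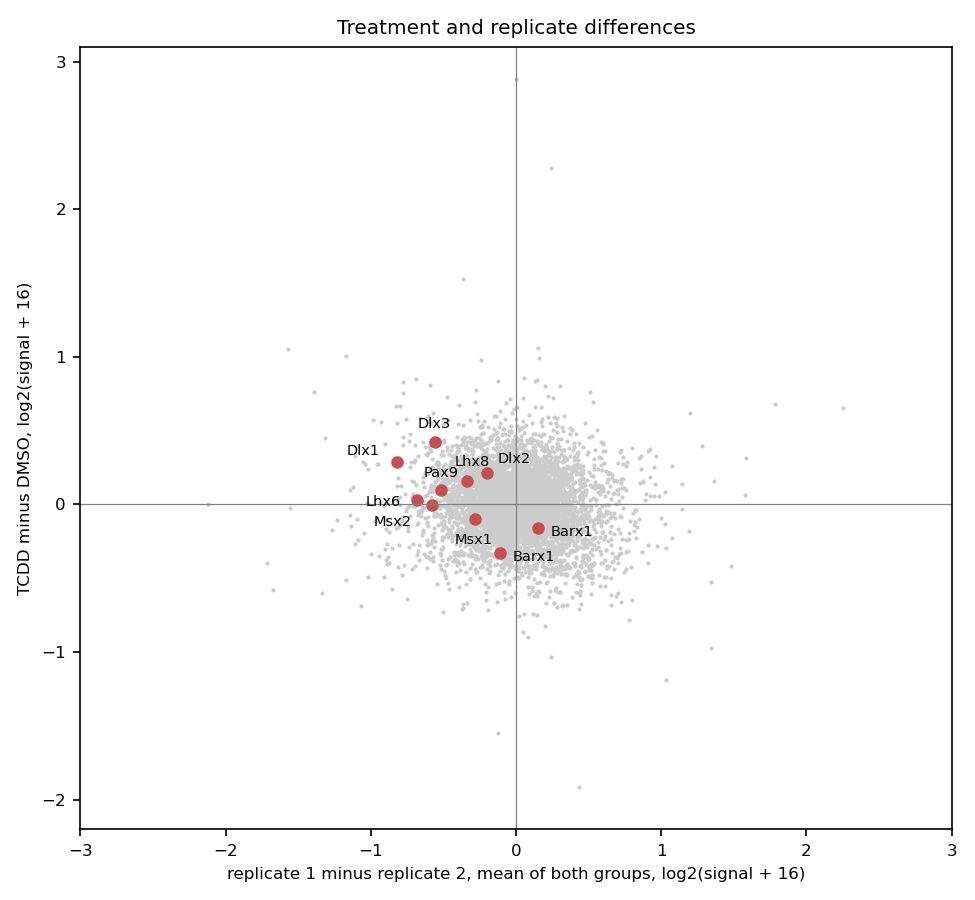
Each point is a probe set, with the log2(signal + 16) difference of replicate 1 minus replicate 2 (mean of both groups) across and that of TCDD minus DMSO upward; grey points are the 5783 tested and red points the 10 patterning probe sets. The patterning genes lie left of 0 except 1 Barx1 probe set, and close to 0 in height, between -0.33 and 0.42.

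Markers of some other tissues moved with replicate number as well. The median log2 difference of replicate 1 minus replicate 2 was 0.94 for skeletal muscle. It was -0.28 for epithelial and for red blood cell markers. For bone, with 2 genes tested, the median of 0.42 lay between opposite values, 1.14 for Ibsp and -0.30 for Alpl. The other Ibsp probe set had 95.6 and 94.1 in DMSO and 72.3 and 89.1 in TCDD, with no higher replicate 1 under TCDD. Other lists stayed nearer level, at 0.04 for mesenchyme, 0.08 for endothelium and for nerve and glia, and 0.12 for macrophages. Of the mesenchyme markers on the array, 8 of 9 had a mean of at least 50, though the Vim probe set was dim at 24.2. Of the epithelial markers 7 of 11 did, though the keratins Krt14, Krt5 and Krt15 had means between 0.825 and 9.18. These dim markers are named after their values were seen. The minimum was also reached by 7 of 9 macrophage, 5 of 7 endothelial and 6 of 10 skeletal muscle markers. Of all 12422 probe sets other than controls, 5783 reached it. These counts therefore do not single out the labelled tissue. The sum of the 9 mesenchyme signals was 4295 and 4257 in DMSO and 4778 and 4403 in TCDD for replicates 1 and 2. That of the 11 epithelial signals was 3005 and 4091 in DMSO and 4104 and 4608 in TCDD, lower in replicate 1 of each group. Both TCDD sums were above both controls, but TCDD replicate 1 at 4104 barely exceeded DMSO replicate 2 at 4091. The bright Dsp, Krt17 and Perp carry most of that sum. Of the 7 tested epithelial markers 5 were higher and 2 lower in TCDD. Cdh1, a cadherin gene, was among the lower, at 170.3 and 141.1 in DMSO and 101.2 and 120.5 in TCDD (-0.44 ± 0.21 SE). Epcam, an epithelial adhesion gene, was higher in replicate 1, at 93.4 and 63.5 in the controls and 115.1 and 70.8 under TCDD; it and Krt17 are named after their values were seen. Skeletal muscle markers ran the other way, their sum over 10 genes being 986 and 438 in the controls and 1253 and 472 under TCDD, higher in replicate 1 of each group. Among them Actc1, the cardiac alpha-actin gene also used by embryonic muscle, measured 457.2 and 152.3 in the controls and 612.4 and 180.3 under TCDD. By exposure, all 7 tested macrophage markers were higher in TCDD, with a median of 0.35, and 4 separated the groups, beside 29.8% of all tested. By limma 0 passed, and 3 had an unadjusted p under 0.05, beside 2.59% of all tested. They were Ctss (0.58 ± 0.23 SE), Lyz2 (0.59 ± 0.24 SE) and C1qb (0.53 ± 0.23 SE). Other, dim probe sets went down, by -0.31 for Lyz2 and -0.76 for C1qb. The list was not tested as a set. No marker of these lists was at 0 on all arrays. The part of tissue composition in the patterning genes' replicate difference was not tested. Relative to the mean of the mesenchyme markers on each array, a scaling chosen after seeing the data, the differences between TCDD and DMSO stayed between -0.39 and 0.36 and 0 passed limma.

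Related genes gave the setting. Of 54 listed homeobox and other transcription factor genes of the first arch and tooth, 40 were on the array and 20 were tested. Among them 8 were higher and 12 lower in TCDD, 0 passed limma, and 0 had an unadjusted p under 0.05. Their median log2 difference was -0.02, and 5 of the 20 separated the groups, beside the 29.8% of all tested. Shox2, a short stature homeobox gene, measured 384.9 and 375.3 in the controls and 503.8 and 501.9 under TCDD, a difference of 0.39 ± 0.18 (SE), and its other, dim probe set differed by 0.14. The replicates of Shox2 lay close together at this probe set, 99042_s_at, unlike those of Dlx1 and Dlx3. Its dim probe set had 29.1 and 51.9 in the controls and 36.2 and 55 under TCDD, lower in replicate 1 of each group. Pknox1, which encodes a partner of Hox and Pbx proteins, had 112.8 and 115.3 against 79.2 and 87.7 (-0.39 ± 0.21 SE). Six2, a sine oculis homeobox gene, had 614.9 and 595.3 against 457.6 and 539.9 (-0.28 ± 0.18 SE), and Hand1 differed by -0.45 ± 0.26 (SE) with overlapping groups.

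Signals that act on the patterning genes, with receptors and antagonists, had 16 of 27 tested. In TCDD 9 were higher and 7 lower, where 51.1% of all tested were higher, and the median was 0.08. Of the 16, 7 separated the groups, beside 29.8% of all tested, and the list was not tested as a set. By limma 0 passed, and 1 had an unadjusted p under 0.05, beside 2.59% of all tested. Bmp4 encodes the BMP ligand that induces Msx1 and Msx2. At 93456_r_at it had 204.4 and 161.3 in DMSO and 296.1 and 207 in TCDD (0.42 ± 0.23 SE). Its other probe set, with a mean of 198.3, had 155.9 and 214.1 against 167 and 256.1, a difference of 0.17. The groups overlapped there. Fst, which encodes an antagonist of activin, had 95.2 and 131 against 164.6 and 181.4 (0.56 ± 0.22 SE). Fgf4, an enamel knot signal, had 158.6 and 120.5 against 94.7 and 95.6 (-0.47 ± 0.22 SE). Edn1, the endothelin signal of the lower jaw, had 94.3 and 49.4 against 23.9 and 58.5 (-0.64 ± 0.34 SE), so its groups overlapped. It passed the minimum through DMSO replicate 1, and its other, dim probe set differed by -0.12. Fgf8, the inducer of Barx1, Lhx6 and Lhx8 at earlier stages, was dim on all arrays, at 0.7 to 1.9, and is named after its values were seen.

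Genes placed downstream of the patterning factors had 11 of 14 tested. In TCDD 4 were higher and 7 lower, where 51.1% of all tested were higher, and the median was -0.11. Of the 11, 4 separated the groups, beside 29.8% of all tested. By limma 0 passed, and 1 had an unadjusted p under 0.05, beside 2.59% of all tested. Dkk1, an inhibitor of Wnt signalling, had 67.6 and 75 in DMSO and 27 and 50.5 in TCDD (-0.71 ± 0.27 SE, limma adjusted p 0.997). Dkk1 passed the signal minimum through its DMSO signals, and it is the gene with the unadjusted p under 0.05. Id2, an inhibitor of helix-loop-helix factors, had 798.9 and 1009.2 against 1084.7 and 1088 (0.27 ± 0.18 SE), and Ncam1, a cell adhesion gene, differed by 0.23 ± 0.20 (SE). Bmp4 belongs to this list too, as Msx1 maintains it, and is counted here at 93456_r_at.

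**Figure D4:**
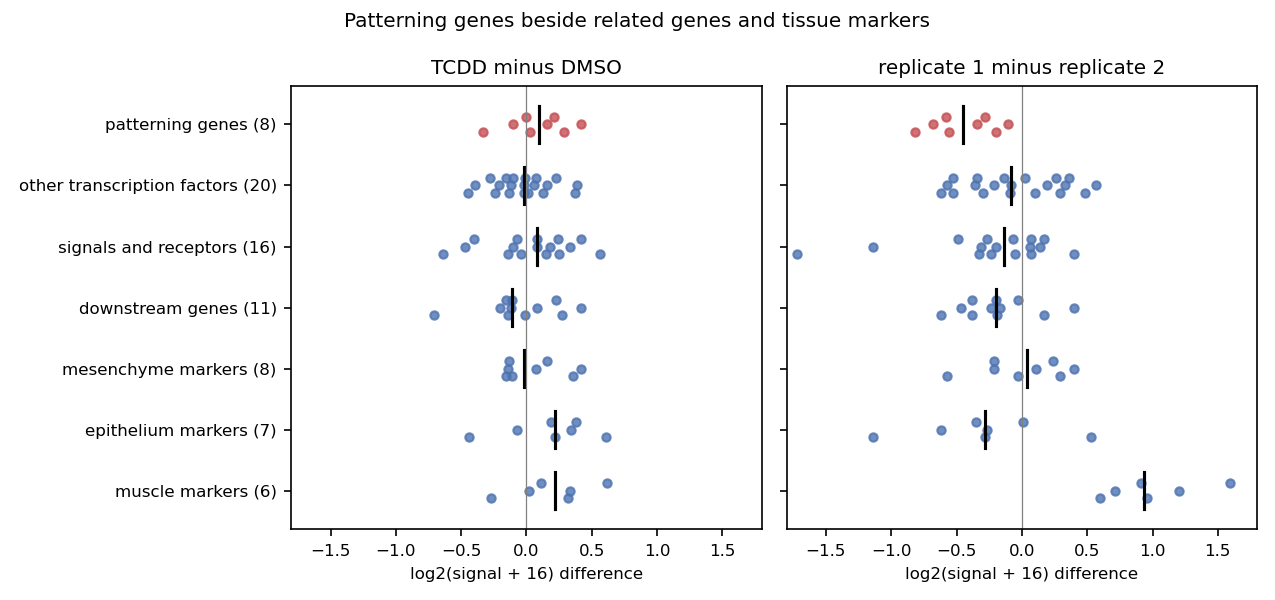
Differences of log2(signal + 16) by gene for TCDD minus DMSO (left) and replicate 1 minus replicate 2 (right), 1 point per tested gene at its brightest probe set, with bars at the medians and the number of genes in brackets. On the left the 8 patterning genes lie around a median of 0.10; on the right they lie below 0 at a median of -0.45 while the 6 muscle markers lie above 0 at 0.94.

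The pattern over the 4 arrays most like that of Msx1, the patterning probe set with the highest mean, was sought among 5262 tested probe sets of other genes by Euclidean distance of log2 values centred on each mean. The nearest were Cdk16, which encodes a cyclin-dependent kinase, at 0.017, Srp68, which encodes a subunit of the signal recognition particle, at 0.030, and Tmem30b at 0.033. Cdk16 measured 183.2 and 214.5 in the controls and 164.2 and 208 under TCDD. By this distance no other patterning gene was among the close ones: Dlx2 was nearest at 0.331, with 1616 probe sets closer, and Dlx1 farthest at 0.813, with 4844 closer. The values were not scaled, so the distance depends on the size of the differences as well as their direction. Msx2, lowest on the same array as Msx1 but with a wider spread, lay at 0.407. The distance therefore does not rank these genes by the shape of their pattern. With 4 arrays such a likeness is a description.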

How the data were processed

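The deposited values were hybridisation intensity signals of the MAS5 algorithm on a linear scale, which the authors scaled to a target of 100 with Affymetrix Microarray Suite 5.0, per the labels. The array was the murine U74v2A. In 37.1% of 49952 cells the deposited table held a day serial in place of the signal, and these were turned back into day and month as whole part and decimal. The trimmed mean was then 100.05 on every array, and none of the cells of the patterning genes was affected (0 serials). Gene names came from the array's platform table, with symbols checked through Entrez IDs in the GRCm38.p6 gene table: 10833 had 1 symbol, 396 several and 1193 none, and 66 were controls. Detection calls were not used here. Precision is limited by having 2 arrays per group.

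TCDD and DMSO were compared with limma 3.58.1 under R 4.3.3, by lmFit and eBayes with a variance trend, on log2(signal + 16), an offset that understates the change of dim genes, for probe sets whose signal averaged 50 or more. P-values were adjusted by Benjamini-Hochberg over all 5783. The fit had 10.8 degrees of freedom in total. The labels give the samples of a group as separate pools. An exact permutation test was left out, as its smallest two-sided p for 2 against 2 arrays is 0.33. The code was tested on simulated data. The genes and lists were chosen with earlier results of these data known. Named genes are every patterning probe set, up to 4 of each other list with the smallest p, and the 3 nearest to Msx1; the text says where it names others. Alternatives covered the offset, the signal minimum, quantile normalization, the variance trend, the serials, averaged probe sets, the replicate number as a block and leaving out each array.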

Additional observations from a re-analysis of the deposited data

How the results depend on the processing

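In the alternatives run, 0 patterning probe sets passed limma's adjusted p. Among the alternatives on all 4 arrays, an unadjusted p under 0.05 was seen for 1 with the replicate block and for 0 in the others. The share over all tested probe sets was not computed for that setting. The sign of Msx2 turned with an offset of 64 (0.01) and with quantile normalization (0.02), and that of Lhx6 with quantile normalization (-2.1e-05) and with centring on mesenchyme markers (-0.03). These values are near 0. With 1 array left out the log2 differences ranged from -0.27 to 0.07 for Msx1, -0.45 to 0.44 for Msx2, -0.31 to 0.51 for Pax9, -0.32 to 0.90 for Dlx1, -0.33 to 0.38 for Lhx6 and -0.13 to 0.46 for Lhx8, and the cause was not tested. Patterning probe sets whose groups did not overlap numbered 1 with quantile normalization. With 1 array left out they numbered 5 to 7, an easier condition. The share over all tested probe sets was not computed for these alternatives, so the counts are not read as a result. The probe sets past the threshold, 4 in all, numbered 2 without the signal minimum, and 2 to 5 with 1 array left out. The median of related transcription factors ranged from -0.24 to 0.10 with 1 array left out, that of signals from -0.08 to 0.29, with -0.06 without the minimum, and that of downstream genes from -0.18 to 0.19. With replicate number as a block, 32 probe sets passed and 0 patterning ones, with a lowest limma adjusted p of 0.509, for Dlx3. Deviations of same-numbered arrays correlated at 0.38 over probe sets, but 2 pairs do not show that numbers pair the samples.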
